A study of Rattus norvegicus with 19 samples.

Results

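The 10 genes described here encode regulators of the response of a neuron to axon injury: Atf3, Jun, Sox11, Stat3, Socs3, Klf4, Klf6, Klf7, Smad1 and Myc. They were chosen by name as regulators of the axotomy response, and every probe set annotated to 1 of these symbols alone was taken. This gave 19 of the 31042 probe sets tested and 10 of the 14217 genes with a probe set of their own: 1 probe set each for Atf3, Sox11, Socs3, Klf4 and Myc, 2 each for Stat3 and Smad1, 3 each for Jun and Klf6, and 4 for Klf7. Where a gene had several, the one with the highest mean signal over the 19 arrays leads.

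The study asked how motor cortex changes after the axons of its corticospinal neurons are cut in the cervical cord. Adult female Fischer 344 rats received a wire knife lesion of the dorsal columns at C3, and the limb areas of motor cortex were dissected at the depth where the layer V neurons lie. RNA was hybridised to 19 rat arrays: 4 of a control group given as time 0, and 3 each at days 1, 3, 7, 14 and 49 after the lesion. Whether the controls had a laminectomy, and whether an array held 1 animal or a pool, is not stated in the labels, so p-values measure the spread between these samples. The tissue holds many cells other than axotomised neurons, and in such bulk RNA fewer cells of a type and less RNA per cell cannot be told apart.

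When an axon is cut, stress signals through the kinases DLK and JNK phosphorylate Jun and lead to transcription of Atf3, which can pair with Jun on AP-1 and CRE sites. Cytokines of the gp130 family act through Stat3, which induces its own inhibitor Socs3, while BMP ligands act through Smad1. Atf3, Jun, Sox11 and Smad1 are known for their induction in sensory neurons after peripheral nerve injury, and the KLF family contains both inhibitors (Klf4) and promoters (Klf6, Klf7) of axon growth.

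Arrays correlated with the others of the series at a median r of 0.994 to 0.997, except day 14 replicate 2 at 0.931 and day 49 replicate 2 at 0.968. Day 14 replicate 2 also had the largest difference between 3′ and 5′ beta-actin probe sets, a sign of shortened RNA, at 2.24 log2 against 0.877 to 1.29 in the 17 other arrays. Both are kept in the main values, and results are given without them where they touch a member. Of 14 neuron markers, the mean signals of Snap25 and of Nefl, Nefm and Nefh lay above those of at least 99.9% of probe sets. Eno2 lay above 97.8%, Pvalb above 97.5%, Sst above 94.0%, Rbfox3 above 93.5% and Slc17a7 above 83.4%. The rest lay lower: Syt1 above 62.3%, Camk2a above 53.1%, Gad2 above 26.5%, Gad1 above 17.8% and Slc32a1 above 9.64%. Of layer V genes, Pcp4 lay above 99.8%, Etv1 above 97.7% and Crym above 78.9%, but Bcl11b above only 51.3% and Fezf2 above 30.4%.

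Promoter windows of 250 bases before the annotated start were available in RefSeq (assembly GRCr8) for 7 of the 10 genes, Sox11, Stat3, Socs3, Klf4, Klf6, Klf7 and Smad1. They were searched on both strands for sites of some of the members' families and of their partners. No SOX site was searched. Those of Sox11, chr6:49738795-49739044 on the minus strand, and of Klf6, chr17:69458479-69458728 on the minus strand, are shown because they hold a near match to the CRE, the site bound by ATF family proteins, and because Sox11 lay with Atf3 in the arrays below while Klf6 did not. Capitals mark the matches to TGANGTCA and, in Klf6, the E-box CACGTG, the site of the MYC network. Both are printed 5′ to 3′ in the direction of the gene and end at the base before the start.
Sox11: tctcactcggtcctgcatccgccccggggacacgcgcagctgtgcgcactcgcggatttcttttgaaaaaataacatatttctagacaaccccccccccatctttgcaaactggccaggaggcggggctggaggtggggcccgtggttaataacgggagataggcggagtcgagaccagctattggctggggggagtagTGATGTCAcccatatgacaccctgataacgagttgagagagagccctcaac
Klf6: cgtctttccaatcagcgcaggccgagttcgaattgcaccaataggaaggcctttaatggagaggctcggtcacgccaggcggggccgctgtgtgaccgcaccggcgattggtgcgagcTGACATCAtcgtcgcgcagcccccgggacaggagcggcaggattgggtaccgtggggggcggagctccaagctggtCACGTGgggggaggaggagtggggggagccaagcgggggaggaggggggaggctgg

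The full CRE TGACGTCA was in 0 of the 7 windows, against 1.59% of 33469 promoter windows of this length. With 1 base free, TGANGTCA, a search added after the windows were seen, it was in 2 of 7 (8.88% of all windows): as TGATGTCA from base -51 to -44 in Sox11 and as TGACATCA from base -132 to -125 in Klf6. The AP-1 letters TGANTCA were in 0 of 7 (6.34% of all). The STAT letters TTCNNNGAA were in 1, Klf4 (7.67% of all), and the E-box CACGTG in 1, Klf6 (5.59% of all). The GC box GGGCGG was in 4 of 7 (30.5% of all) and the KLF letters CACCC in 4 of 7 (49.2% of all). Neither the SMAD letters GTCTAGAC (0.173% of all) nor the CEBP-ATF letters TGATGCAA (0.693% of all) were in any of the 7. In Sox11 the CACCC from base -45 to -41 overlaps the end of TGATGTCA. A match describes the letters only.

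Atf3, the transcription factor whose mRNA marks injured neurons, lay above every control in all 12 arrays of days 1 to 14. At day 49 its mean was close to that of the controls. Its log2 signals in the 4 controls were 5.88, 5.84, 5.86 and 6.11. At day 1 they were 7.16, 7.17 and 8.64, at day 3 they were 6.82, 6.76 and 7.11, and at day 7 they were 6.36, 6.83 and 8.24. At day 14 they were 7.43, 7.90 and 7.30, and at day 49 they were 5.84, 5.59 and 6.28. No array of days 1 to 14 overlapped the control range. At day 49 replicate 1 lay just inside its lower end, replicate 2 below it and replicate 3 above it. Of all 31042 probe sets, 26 (0.0838%) had all 12 arrays of days 1 to 14 above all controls, and Atf3 was the only member among them; without day 14 replicate 2 there were 35 (0.113%), and Sox11 was among them as well. The spread was unequal: 1 array stood well above the other two at day 1 and again at day 7, whereas the arrays of days 3 and 14 lay closer together.

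The mean Atf3 signal was 5.92 ± 0.12 (SD, n = 4) in controls, 7.65 ± 0.85 at day 1, 6.90 ± 0.19 at day 3, 7.14 ± 0.98 at day 7, 7.54 ± 0.32 at day 14 and 5.90 ± 0.35 at day 49 (SD, n = 3 each). The difference from control was 1.73 at day 1, 0.98 at day 3, 1.22 at day 7, 1.62 at day 14 and -0.02 at day 49, each with a standard error of 0.38. As folds of the array signal these are 3.32, 1.97, 2.33 and 3.08 for days 1 to 14. Of all 31042 probe sets, Atf3 had the largest difference from control at day 1, the fifth largest at day 3, the third largest at day 7 and the fourth largest at day 14, and at day 49 it ranked 17287 from the top. Without day 14 replicate 2 and day 49 replicate 2, the differences were 1.44 at day 14 and 0.14 at day 49, the latter with the opposite sign.

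These differences did not pass the threshold over all probe sets. In limma's fit of all 6 groups the adjusted p (Benjamini-Hochberg over 31042 probe sets, threshold 0.05) was 0.415 at day 1 and 0.365 at day 14. It was 1.00 at days 3 and 7 and 0.981 at day 49, and the unadjusted limma p was 0.000374, 0.0218, 0.00594, 0.000678 and 0.957 in order of time. The moderated F test over the 5 times gave an unadjusted limma p of 0.000790 and an adjusted p of 0.646. With the 2 arrays that stand apart left out, the adjusted p at day 1 in limma was 0.0972. With the replicate number as a block, which pairs control and day 1 arrays, the day 1 difference was 1.79 and its limma adjusted p was 0.523. Leaving out the highest array moved the difference from 1.73 to 1.24 at day 1 and from 1.22 to 0.67 at day 7.

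Over all 15 lesion arrays against the 4 controls, the mean Atf3 difference was 1.11 ± 0.28 (SE), and the exact permutation test over the 3876 splits gave a two-sided p of 0.0129. That exact p is not adjusted for the 10 genes tested in this way. The limma adjusted p of the lesion mean, over all probe sets, was 0.966 in 19 arrays and 0.553 in 17. Of the 15 arrays, 13 lay above every control. Among the 10 leading probe sets, each tested in this way, the next smallest exact two-sided p was 0.0872, for Klf6. A single time against control allows only 35 splits, so that its exact p cannot go below 0.0571.

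**Figure D1:**
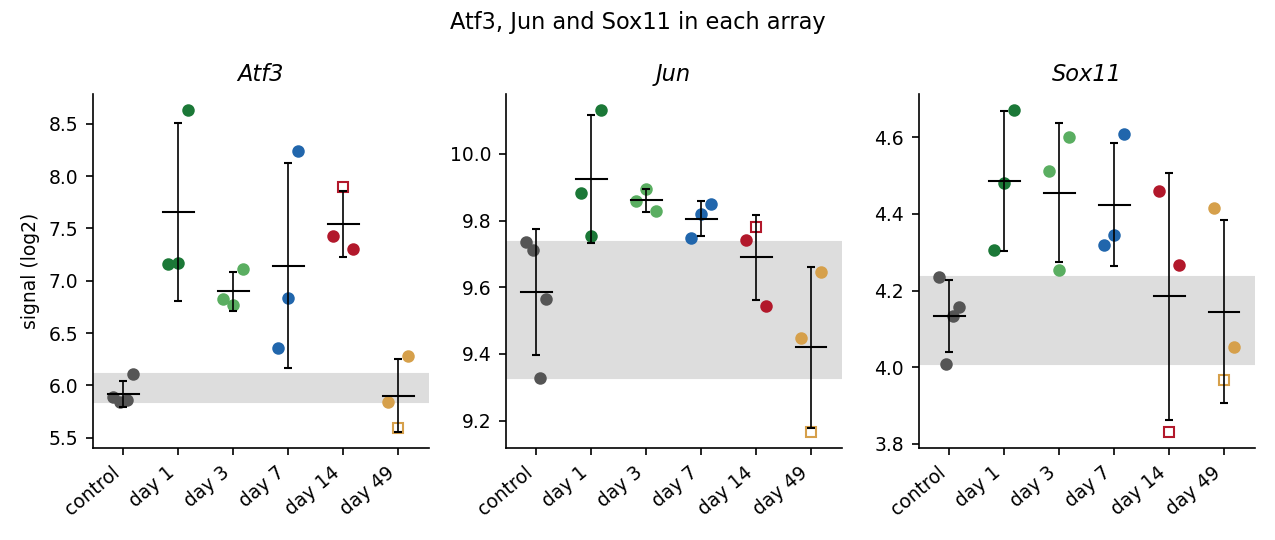
Log2 signal of the leading probe sets of Atf3, Jun and Sox11 in each of 19 arrays by group (vertical axes differ in range; dots are arrays, open squares day 14 replicate 2 and day 49 replicate 2, lines the mean, bars 1 SD, grey band the control range). All 12 Atf3 arrays of days 1 to 14 lie above the control band, and 11 of 12 do so for Jun and for Sox11.

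In order of mean signal Atf3 stood highest at day 1, then day 14, day 7 and day 3, with the control and day 49 lowest. Neighbours in this order were not told apart within the lesion times: day 14 minus day 1 was -0.11 (95% interval -0.98 to 0.76), day 14 minus day 7 was 0.40 (-0.47 to 1.27) and day 7 minus day 3 was 0.24 (-0.63 to 1.12). Day 49 lay below day 1 by a difference of -1.75, below day 14 by -1.64 and below day 7 by -1.24. The limma adjusted p of these 3 differences was 0.408, 0.343 and 0.510, and it was 0.372 for day 49 against day 3. No member probe set was called in any of the 10 pairs of lesion times. Of all probe sets, limma called 0.0258% between days 1 and 3, 0.0226% between days 1 and 7, 0.029% between days 1 and 14, 0.0258% between days 1 and 49 (0.00322% with the replicate block) and 0% in the other 6 pairs.

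Jun, the AP-1 subunit that pairs with Atf3, and Sox11, a developmental transcription factor, lay on the same side of control at days 1, 3 and 7, with much smaller differences. The leading Jun probe set read 9.74, 9.71, 9.33 and 9.57 in the controls. It read 9.88, 9.76 and 10.13 at day 1, 9.86, 9.90 and 9.83 at day 3, and 9.75, 9.82 and 9.85 at day 7. At day 14 it read 9.74, 9.78 and 9.55, and at day 49 9.45, 9.17 and 9.65. Every Jun array of days 1 to 7 lay above the highest control, narrowly so in 1 array each of days 1 and 7. At day 14 replicates 1 and 2 also lay above the highest control and replicate 3 did not, and no day 49 array did. The differences from control were 0.34 at day 1, 0.28 at day 3, 0.22 at day 7, 0.10 at day 14 and -0.17 at day 49, each with an SE of 0.12.

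Sox11 read 4.24, 4.01, 4.13 and 4.16 in the controls, 4.31, 4.48 and 4.67 at day 1, 4.51, 4.25 and 4.60 at day 3, and 4.32, 4.34 and 4.61 at day 7. At day 14 it read 4.46, 3.83 and 4.27, and at day 49 4.42, 3.97 and 4.05. All arrays of days 1 to 7 and both day 14 arrays other than replicate 2 lay above the controls. Its differences from control were 0.35 at day 1, 0.32 at day 3, 0.29 at day 7, 0.05 at day 14 and 0.01 at day 49, each with an SE of 0.15, and the day 14 value was 0.23 in the fit of 17 arrays. The signs at days 14 and 49 turned when the arrays were quantile normalized again, to -0.04 and -0.09. The mean Sox11 signal stood at percentile 29.1 of all probe sets, the lowest of the 10 leading probe sets, so that these small differences are between dim signals. The highest Jun, Sox11 and Atf3 signals of the series were all in day 1 replicate 3.

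The other probe sets of Jun had wider controls. In control 3 they read 8.09 and 5.16, against 9.30 to 9.44 and 6.60 to 6.79 in the other 3 controls, and in day 14 replicate 2 they read 5.66 and 3.99. The brighter of them read 9.38, 9.40 and 9.63 at day 1, 9.44, 9.37 and 9.50 at day 3, and 9.23, 9.43 and 9.49 at day 7. The dimmer read 6.62, 6.62 and 6.78 at day 1, 6.66, 6.69 and 6.75 at day 3, and 6.48, 6.63 and 6.43 at day 7. Unlike the leading probe set, both thus overlapped the controls at each of these times. Over the 17 arrays they correlated with the leading Jun probe set at r of 0.77 and 0.72. Averaged over its 3 probe sets, Jun at day 14 differed from control by -0.53, the opposite sign to the leading probe set; in the fit of 17 arrays the 3 probe sets differed by 0.06, 0.24 and 0.06 there.

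Over the 19 member probe sets, limma called 0 at each of the 5 times, where it called 0.0354% of all probe sets at day 1 (0.00966% with the replicate block) and 0% at days 3, 7, 14 and 49. It also called 0 for the mean of all lesion times (0% of all) and 0 in the F test (0.0129% of all), and 0 in every comparison with control of the 17-array fit, where it called 0.219% of all at day 1, 0.135% by the F test and 0% otherwise. At an unadjusted limma p under 0.05 there were 3 of 19 at day 1 (Atf3, Jun and Sox11, against 1.64% of all probe sets) and the same 3 at day 3 (0.908% of all). There was 1 at day 7 (Atf3, against 0.886%), 6 at day 14 (13.1% of all) and 1 at day 49 (the leading Klf6 probe set, against 15.4%). For the lesion mean there was 1, Atf3 (2.94% of all), and for the F test 2, Atf3 and Jun (4.41% of all). With the 2 arrays left out, the counts of member probe sets were 3 at day 1 (7.12% of all), 4 at day 3 (4.56%), 4 at day 7 (4.89%), 2 at day 14 (5.68%) and 2 at day 49 (12% of all). They were 3 for the lesion mean (8.45%) and 3 for the F test (7.07%). Of the 6 at day 14, Atf3 and a second Klf6 probe set remained, and the 2 at day 49 were lower, in the weakest Klf6 probe set and the second Smad1 probe set. Other settings of the test made calls: with array weights Atf3 passed at day 1 (limma adjusted p = 0.0452, where 0.564% of all probe sets passed), and in a fit of the 2 groups alone it passed at day 3 (limma adjusted p = 0.0472). Array weights also called 7 member probe sets at day 49, where 21% of all probe sets passed. Among them were the leading ones of Stat3, Klf6 and Smad1 (limma adjusted p = 0.0135, 0.0248 and 0.0322).

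Counted without a test, all arrays of a lesion time lay above all controls for 3 of the 19 probe sets at day 1 (4.4% of all probe sets), 4 at day 3 (2.65% of all), 4 at day 7 (2.86% of all), 1 at day 14 (6.43% of all) and 0 at day 49 (5.27% of all). Atf3, Jun and Sox11 made up the 3 at day 1 and were joined by the leading Klf7 probe set at day 3 and by another Klf7 probe set at day 7. All arrays lay below all controls for 0 of the 19 at day 1 (2.54% of all), 1 at day 3 (Klf4, against 2.82%) and 1 at each of days 7, 14 and 49 (a Klf6 probe set, against 4.19%, 2.62% and 4.8%).

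**Figure D2:**
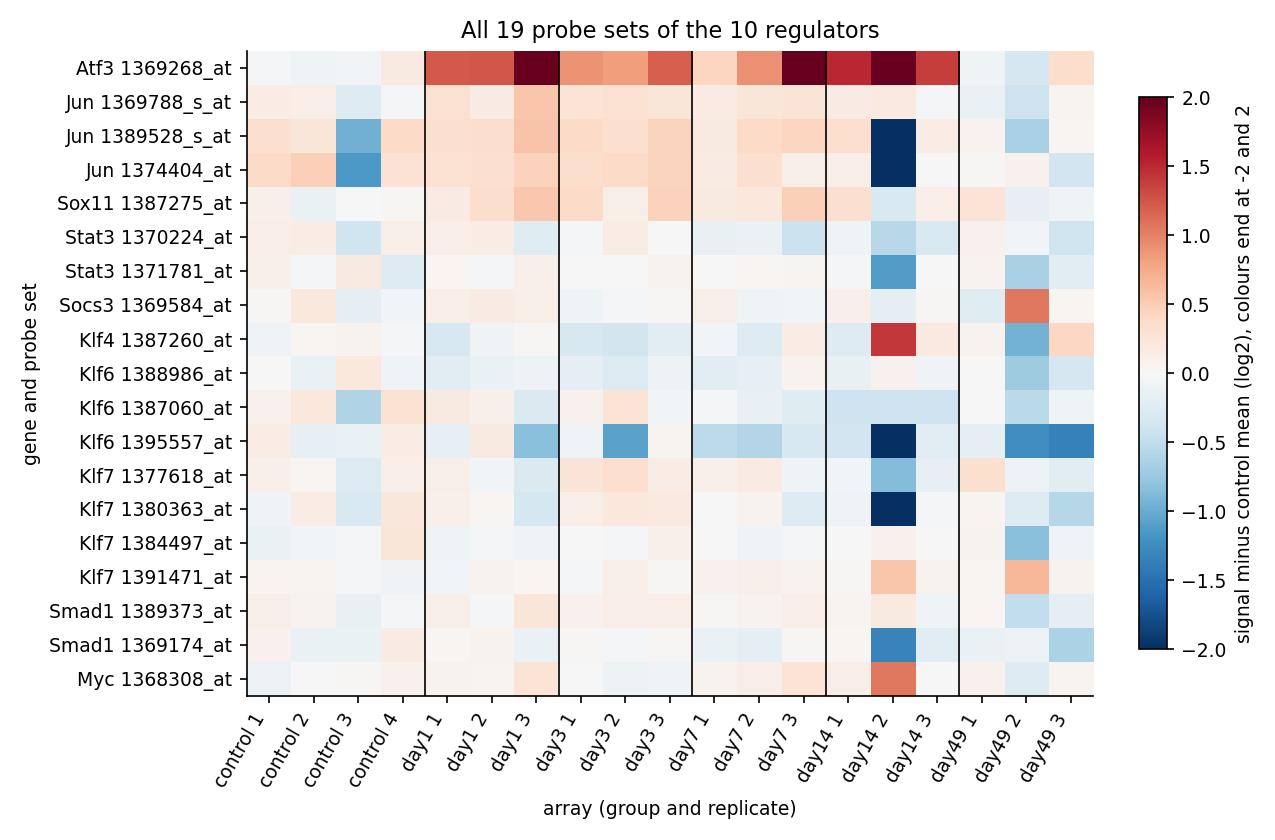
Signal minus the control mean (log2, colours end at -2 and 2) of all 19 probe sets of the 10 regulators (vertical axis) in each of 19 arrays (horizontal axis, by group). Atf3 is above the control mean in all 12 arrays of days 1 to 14, and day 14 replicate 2 is the array furthest from the control mean for the other probe sets of Jun.

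Stat3, the transcription factor of gp130 cytokines, and Socs3, its feedback inhibitor, had no difference from control that passed the test. The leading Stat3 probe set read 9.77, 9.78, 9.23 and 9.75 in the controls, 9.77, 9.78 and 9.39 at day 1, 9.60, 9.78 and 9.65 at day 3, and 9.49, 9.49 and 9.21 at day 7. It read 9.55, 9.07 and 9.33 at day 14 and 9.72, 9.58 and 9.23 at day 49. Control 3 stood far below the other 3 controls, and with it included the arrays of days 7 and 14 overlapped the control range. The difference from control was 0.01 at day 1, 0.04 at day 3, -0.24 at day 7, -0.31 at day 14 and -0.12 at day 49, each with an SE of 0.16. The second Stat3 probe set had differences of 0.04, 0.02, 0.04, -0.38 and -0.27 (SE 0.22). In the fit of 17 arrays its day 14 and day 49 values shrank to -0.01 and -0.07, and those of the leading one were -0.19 and -0.16. The 2 probe sets correlated over the 17 arrays at r of -0.12.

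Socs3 lay between 5.22 and 5.62 in the controls, between 5.53 and 5.56 at day 1, 5.33 and 5.43 at day 3, 5.31 and 5.53 at day 7, and 5.23 and 5.51 at day 14. At day 49 it read 5.16, 6.46 and 5.45, so that the group's mean of 5.69 rests on replicate 2, the array that stands apart. Its differences from control were 0.14, -0.03, -0.01, -0.02 and 0.28 in order of time, each with an SE of 0.21, and the last was -0.10 in the fit of 17 arrays. All 3 day 1 arrays lay within the control range.

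Klf4, a repressor of axon growth, read 5.73, 5.84, 5.87 and 5.77 in the controls and 5.48, 5.44 and 5.57 at day 3, when all 3 arrays lay below all controls. It read 5.49, 5.73 and 5.83 at day 1 and 5.75, 5.55 and 5.96 at day 7. At day 14 it read 5.55, 7.21 and 6.01 and at day 49 5.87, 4.86 and 6.22, where the arrays lay on both sides of the controls and replicate 2 was the extreme in each. The difference from control at day 3 was -0.31 (SE 0.32, 95% interval -0.98 to 0.36). Day 14 differed by 0.45 and day 49 by -0.15 in 19 arrays, and by -0.03 and 0.24 in the fit of 17 arrays, both with the sign turned.

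Klf6, which promotes axon growth, had 3 probe sets that did not move together. The leading one lay between 8.21 and 8.55 in the controls, 8.11 and 8.24 at day 1, 8.07 and 8.23 at day 3, 8.13 and 8.41 at day 7, and 8.20 and 8.42 at day 14. At day 49 it read 8.33, 7.63 and 8.01. Its differences from control were -0.15, -0.19, -0.10, -0.04 and -0.35 in order of time (SE 0.13), with -0.17 at day 49 in the fit of 17 arrays, and 9 of 15 lesion arrays lay below every control. Over the 17 arrays it correlated with the other two Klf6 probe sets at r of -0.50 and 0.53.

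The lowest of the Klf6 probe sets in signal read 7.45, 7.15, 7.17 and 7.45 in the controls. It read 7.14, 7.49 and 6.47 at day 1, 7.23, 6.23 and 7.36 at day 3, and 6.78, 6.72 and 6.99 at day 7. At day 14 it read 6.92, 4.35 and 7.08 and at day 49 7.11, 6.06 and 5.95. Its arrays of days 7, 14 and 49 all lay below the controls, with differences of -0.47, -1.19 and -0.93 (SE 0.51), with -0.31 and -0.78 at days 14 and 49 in the fit of 17 arrays (SE 0.32). Over the 17 arrays this signal followed the beta-actin 3′ minus 5′ difference, with r = -0.83, and r = -0.79 after each group's mean was removed. The beta-actin difference ran from 0.877 to 1.09 in the controls, 0.890 to 1.26 at day 1, 0.947 to 1.12 at day 3 and 1.09 to 1.14 at day 7. In the 17 arrays it was 0.955 and 1.03 at day 14, and 1.10 and 1.29 at day 49. The part of RNA length in this Klf6 result was not tested.

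**Figure D3:**
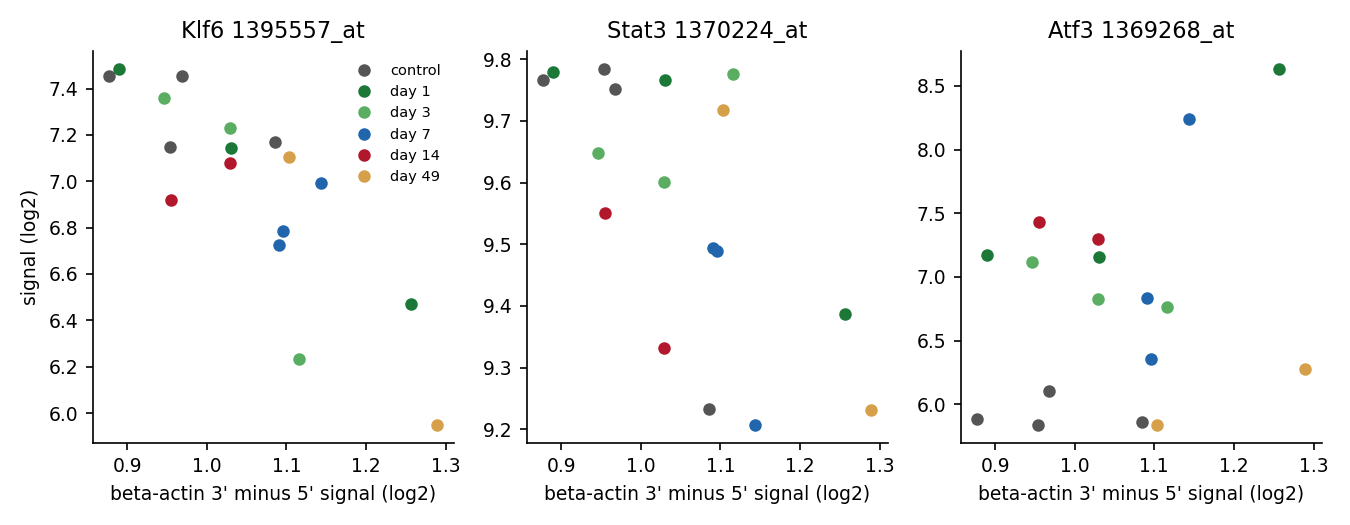
Log2 signal of the weakest Klf6 probe set, the leading Stat3 probe set and Atf3 against the beta-actin 3′ minus 5′ difference (log2) in the 17 arrays left after day 14 replicate 2 and day 49 replicate 2; each dot is an array, coloured by group. The Klf6 and Stat3 signals are lower where the beta-actin difference is larger (r = -0.83 and -0.65), and Atf3 shows a weaker relation in the other direction (r = 0.28).

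The leading Stat3 probe set followed the same measure with r = -0.65 over the 17 arrays and r = -0.74 within groups, and its low control 3 had the largest beta-actin difference of the controls, 1.09. For Atf3 the r was 0.28, and 0.52 within groups. Day 1 replicate 3, with the highest Atf3 signal, had a beta-actin difference of 1.26, and the 3 day 7 arrays lay above the control range. The other day 1 arrays, at 1.03 and 0.890, and day 14 replicates 1 and 3 lay within it, and the day 3 arrays lay on both sides of its upper end. The part of RNA length in the Atf3 differences was not tested. For Jun and Sox11 the r was 0.16 and 0.05. These correlations describe arrays that share their RNA preparation and carry no test.

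Klf7, the KLF family member that promotes growth in corticospinal neurons, was led by a probe set that read 8.77, 8.72, 8.40 and 8.81 in the controls and 8.93, 9.02 and 8.82 at day 3, above all controls. It read 8.79, 8.61 and 8.38 at day 1, 8.78, 8.83 and 8.59 at day 7, and 8.61, 7.80 and 8.51 at day 14. At day 49 it read 8.99, 8.55 and 8.45. The groups other than day 3 overlapped the controls. Day 3 differed from control by 0.25 and day 14 by -0.37 (SE 0.18), and day 14 from day 3 by -0.61, with a limma adjusted p of 0.449. In the fit of 17 arrays that last difference was -0.36. The second Klf7 probe set correlated with the leading one at r = 0.80 over the 17 arrays, and the 2 weaker ones did so at 0.32 and -0.01. At day 3 the second read 8.92, 9.01 and 8.98, within its control range of 8.49 to 9.02. The 2 weaker ones overlapped the controls at day 3 as well, so only the leading probe set left the control range there.

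Smad1, the transcription factor of BMP signals, read 9.25, 9.20, 8.98 and 9.09 in the controls, between 9.11 and 9.37 at day 1, 9.22 and 9.26 at day 3, 9.15 and 9.27 at day 7, and 9.04 and 9.31 at day 14. At day 49 it read 9.17, 8.64 and 8.94. The lesion arrays of days 1 to 14 lay in or just above the control range. The differences from control were 0.11, 0.12, 0.07, 0.05 and -0.21 (SE 0.11), the last being -0.07 in the fit of 17 arrays. Its array pattern was close to that of Jun, with r = 0.80 over the 17 arrays and 0.68 within groups. The second Smad1 probe set read 6.49, 6.27, 6.26 and 6.57 in the controls, 6.44, 5.05 and 6.16 at day 14, and 6.27, 6.27 and 5.77 at day 49. It lay in or near the control range at days 1, 3 and 7, and its differences from control were -0.01, 0.00, -0.10, -0.51 and -0.29 in order of time (SE 0.23). In the fit of 17 arrays the last 2 were -0.09 and -0.38 (SE 0.13). It correlated with the leading Smad1 probe set at r = 0.50 over the 17 arrays, and with the beta-actin difference at r = -0.70 (-0.61 within groups), whose part in its day 49 value was not tested.

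Myc, a growth regulator, read 6.43, 6.54, 6.56 and 6.63 in the controls. It lay between 6.59 and 6.81 at day 1, 6.43 and 6.54 at day 3, 6.61 and 6.81 at day 7, and 6.27 and 6.62 at day 49. At day 14 it read 6.67, 7.59 and 6.54, so that its difference there of 0.40 (SE 0.18) rests on replicate 2, and it was 0.07 without it. The other differences were 0.13 at day 1, -0.06 at day 3, 0.16 at day 7 and -0.04 at day 49.

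**Figure D4:**
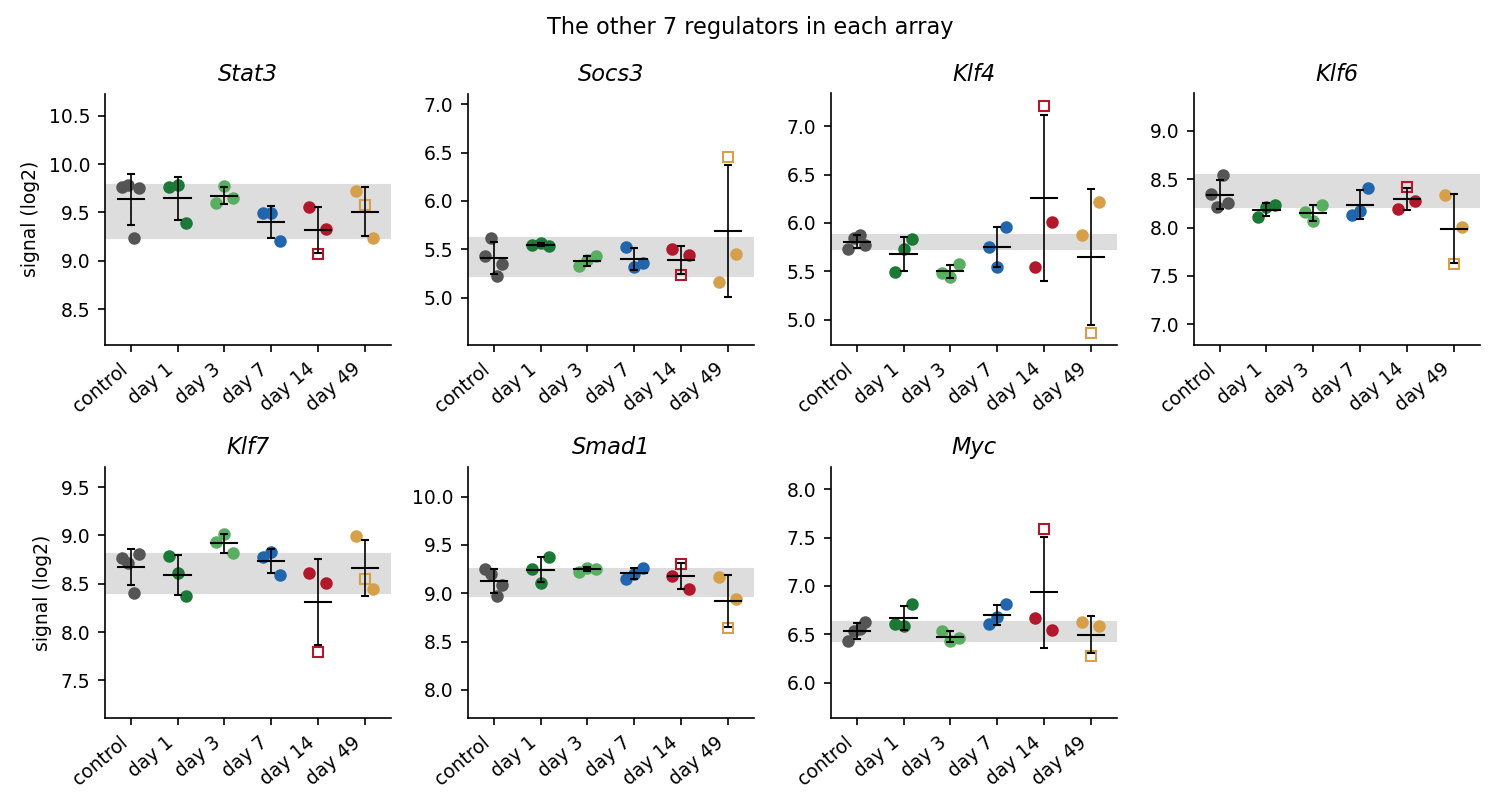
Log2 signal of the leading probe sets of Stat3, Socs3, Klf4, Klf6, Klf7, Smad1 and Myc in each of 19 arrays by group, each on a vertical axis of equal length (dots are arrays, open squares day 14 replicate 2 and day 49 replicate 2, lines the mean, bars 1 SD, grey band the control range). Klf4 and Klf7 leave the control band in all 3 arrays of day 3, in opposite directions.

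Among the members, Atf3 varied most, over 2.80 log2 units in the 17 arrays, and Myc least, over 0.39. Across these arrays Atf3 went with Sox11 at r = 0.76, with Jun at 0.69 and with Myc at 0.61. Within groups these became 0.57, 0.49 and 0.77. Stat3 and Klf7 went together at r = 0.71 (0.93 within groups), and Klf4 ran against Klf7 at r = -0.63 (-0.76 within groups). The measure of RNA length, beta-actin, had an r of -0.65 with Stat3 (-0.74 within groups), -0.32 with Klf7 (-0.62) and 0.43 with Klf4 (0.44). Without the 2 arrays farthest from the median beta-actin difference, the r over arrays was -0.54, 0.14 and 0.11. With Myc it was 0.49 (0.49 within groups), and 0.41 without those 2 arrays. The part of RNA length in the correlations among Atf3, Myc, Stat3, Klf7 and Klf4 was not tested. All correlations given here are over the same 17 arrays and are descriptions.

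The genes most like Atf3 over the 17 arrays, out of 3733 genes with a range of at least 0.5 log2, were Flrt3 (r = 0.91), Ccl2 (0.86), Stmn4 (0.85), Nabp1 (0.81), Gadd45a (0.81), Slc50a1 (0.80), Gas7 (0.78) and Sh3tc2 (0.78). Within groups the r was 0.92 for Flrt3, a membrane protein of axon guidance, and 0.80 for the chemokine gene Ccl2. Flrt3 averaged 6.86 ± 0.05 (SD, n = 4) in controls and 7.20 ± 0.32, 7.10 ± 0.02, 7.21 ± 0.26, 7.29 ± 0.30 and 6.58 ± 0.18 (SD, n = 3 each) at days 1, 3, 7, 14 and 49. Like Atf3, it was highest at days 1 and 7 in replicate 3. Stmn4, a stathmin of neuronal microtubules, fell to r = 0.09 when all 19 arrays were used, since its signal in day 14 replicate 2 was 7.18 against 8.54 to 9.05 in the 17 arrays. Of the 8 genes only Slc50a1, a sugar transporter gene, passed at day 1 in the 17-array limma fit (difference 0.47, adjusted p = 0.00767); in the 19-array limma fit its adjusted p was 1.00.

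**Figure D5:**
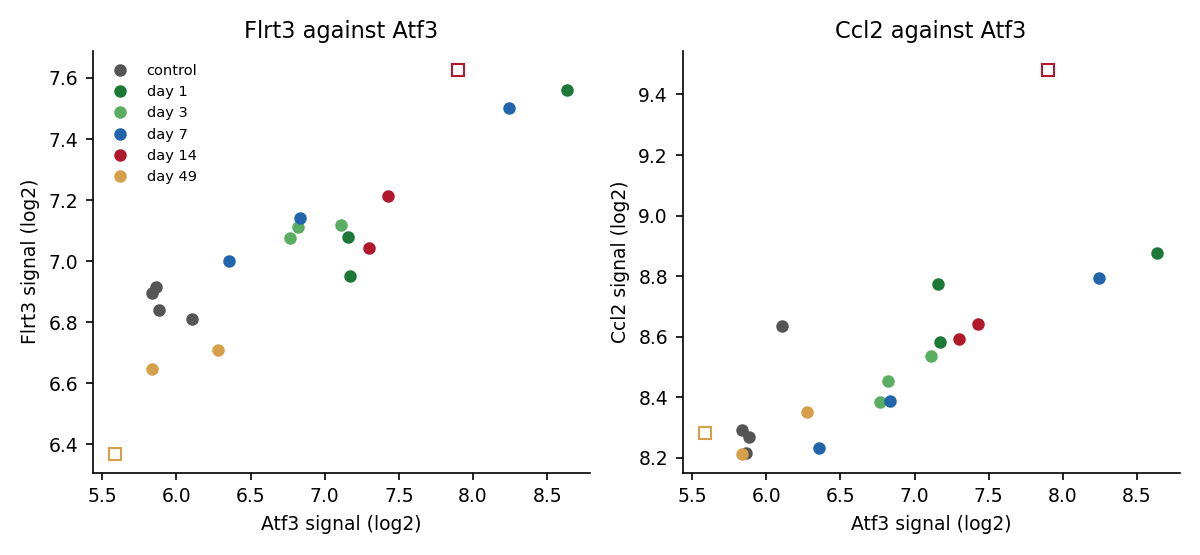
Log2 signals of Flrt3 and of Ccl2 (vertical axes) against Atf3 (horizontal axis); each point is an array, coloured by group, with day 14 replicate 2 and day 49 replicate 2 as open squares. Both genes are higher in arrays with more Atf3 (r = 0.91 and 0.86 over the 17 other arrays).

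The pathway partners of each regulator were followed as lists. In the 19-array limma fit no gene of the 8 lists was called in any comparison with control. Of 24 measured AP-1 and ATF/CEBP partners, 20 lay above control at day 1, with a median difference of 0.05, where 53.3% of all probe sets lay above control. At day 3 it was 9 of 24 (48.7% of all) and at day 7 it was 12 of 24 (52.3% of all). With the 2 arrays left out, limma called 2 of the 24 at day 1, both higher, where it called 0.219% of all probe sets. Cebpd, a CEBP factor of the acute response, averaged 7.37 ± 0.13 (SD, n = 4) in controls and 7.92 ± 0.11 (SD, n = 3) at day 1, a difference of 0.55 with a limma adjusted p of 0.00426 in 17 arrays and 0.671 in 19. Maff, a small MAF factor, averaged 4.46 ± 0.17 (SD, n = 4) in controls and 4.89 ± 0.10 (SD, n = 3) at day 1, a difference of 0.43 with a limma adjusted p of 0.0438 in 17 arrays and 0.549 in 19. Unlike Atf3, both were below the control mean at day 3, by differences of -0.14 and -0.23. Ddit3, the third gene of this list by F test, differed by 0.05 at day 1.

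Of 19 measured genes of DLK and JNK signalling, 11 lay above control at day 1, 11 at day 3 and 11 at day 7, and limma called 0 with 17 or 19 arrays. Gadd45a, a stress gene that also ranked among the genes most like Atf3, averaged 9.41 ± 0.08 (SD, n = 4) in controls and 9.83 ± 0.13 (SD, n = 3) at day 1, a difference of 0.43 that missed the threshold (limma adjusted p = 0.196 in 17 arrays). Gadd45g differed by 0.37 at days 1 and 7 and the phosphatase gene Dusp1 by 0.08 at day 1; limma called neither. Of 30 genes of gp130 cytokines, JAK and STAT, 18 lay above control at day 1 and limma called 0. In that list the cytokine gene Cntf averaged 9.62 ± 0.22 (SD, n = 4) in controls and 10.11 ± 0.35 (SD, n = 3) at day 1, a difference of 0.49 (limma adjusted p = 0.271 in 17 arrays), and Osm and Socs2 differed by 0.17 and -0.08.

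Limma called 0 of the 11 other KLF genes, 0 of 28 genes of BMP signalling, 0 of 11 SOX genes and 0 of 17 genes of the MYC network, in either fit. At day 1, 7 of 11 KLF, 19 of 28 BMP, 5 of 11 SOX and 7 of 17 MYC genes lay above control, beside 53.3% of all probe sets. The genes with the smallest F test p in these lists had small differences at day 1: -0.25 for Klf10, 0.04 for Klf1 and 0.03 for Klf16 in the KLF family. In BMP signalling they were -0.20 for the receptor gene Bmpr2, 0.08 for Smad4 and 0.18 for the antagonist gene Chrd. In the SOX family they were -0.17 for Sox4, 0.03 for Sox2 and 0.19 for Sox10. In the MYC network they were 0.14 for Mycl, -0.03 for Ccnd1 and 0.01 for Mxi1. At an unadjusted limma p under 0.05 the day 1 fit of 17 arrays passed 7.12% of all probe sets.

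Of 45 genes of axotomy and regeneration, many of them known to follow Atf3 and Jun in injured neurons, 27 lay above control at day 1, 30 at day 3, 33 at day 7, 28 at day 14 (53.7% of all probe sets) and 15 at day 49 (52.7% of all) in the fit of 17 arrays, and limma called 0 of the 45. The neuropeptide gene Gal differed from control by 0.39, 0.38, 1.26, 1.76 and 0.11 in order of time, and Vip by 0.32, 0.14, 1.76, 2.81 and 0.39. Gal averaged 6.67 ± 0.14 (SD, n = 4) in controls and 8.43 ± 0.30 (SD, n = 3) at day 14, and Vip 3.90 ± 0.13 (SD, n = 4) and 6.70 ± 0.39 (SD, n = 3). The limma adjusted p at day 14 was 0.178 for Gal and 0.301 for Vip. The cytokine gene Il24 differed by 0.25 at day 7 and 0.40 at day 14.

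Markers of other cells moved with some of these times. The mean level over 11 astrocyte markers ran from 7.35 to 7.45 in controls, 7.49 to 7.60 at day 1 and 7.51 to 7.78 at day 14, above all controls at both, and from 7.37 to 7.46 at day 3 and 7.40 to 7.45 at day 7. These genes did not move alike. At day 1, 8 lay above control and 3 below (53.3% of all probe sets above), with a median difference of 0.04 and a largest of 0.64. At day 14 in the fit of 17 arrays it was again 8 and 3 (53.7% of all above), with a median of 0.06 and a largest of 0.84. For 15 microglia and macrophage markers the mean level ran from 5.77 to 5.81 in controls, 5.84 to 6.04 at day 1, 5.68 to 5.99 at day 3, 5.70 to 5.77 at day 7, 5.78 to 6.10 at day 14 and 5.62 to 6.09 at day 49. Endothelial and pericyte markers (13 genes) ran from 6.19 to 6.33 in controls and 6.33 to 6.46 at day 1. A list of 14 deep-layer genes ran from 6.88 to 7.00 in controls and 6.89 to 7.00 at day 1. It holds layer V markers but also Rorb, Foxp2, Tle4 and Ccn2, which are not particular to layer V, so its mean does not measure layer V alone. The 8 blood leukocyte and neutrophil markers ran from 4.27 to 4.86 in controls, 4.53 to 4.74 at day 1 and 4.70 to 5.47 at day 14. The upper ends at day 14 of the astrocyte, microglia and blood markers were all in day 14 replicate 2. Replicates 1 and 3 of day 14 read 7.55 and 7.51 for the astrocyte markers. They read 5.87 and 5.78 for microglia and macrophages, and 4.70 and 4.99 for blood. The part of these cells in the differences of Atf3, Jun and Sox11 at days 1 and 14 was not tested.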

How the data were processed

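The authors deposited 1 table of log2 signals, 1 value per probe set and array, made with RMA, which corrects background, normalizes by quantiles and sums up the probes, per the submitters' processing notes. No RMA version and no scan batch is given in the sources used here. Quantile normalization would hide a shift of all transcripts. Samples were grouped by their labels. The 57 array control probe sets among 31099 were kept out of the tests. Symbols came from the platform annotation, updated by gene ID (20758 probe sets) or accession (2), with 66 kept as given; 20826 probe sets had 1 symbol, 436 several and 9780 none. Coordinates and promoter windows are those of RefSeq for GRCr8.

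Log2 values were fitted with limma 3.58.1 (R 4.3.3) as 6 group means over 19 arrays, two-sided, with Benjamini-Hochberg adjustment over 31042 probe sets and a threshold of 0.05; the fit was tested on simulated data. Figures used matplotlib 3.10.9. Genes named are all members, partner genes past the threshold in either fit, the 3 of each list with the smallest F test p, and the 8 most like Atf3. Replicate numbers come from the labels, which do not say what they mark. Same-numbered arrays deviated together in every pair (r over 0.1) for 2 of the 15 pairs of groups. These were control with day 1 (lowest r 0.12) and day 1 with day 49 (lowest 0.24). They were taken as paired from these correlations alone, and the other 13 were not. The blocked day 1 differences from control were 1.79 for Atf3, 0.33 for Jun and 0.36 for Sox11. Control replicate 4, the only array with that number, does not enter them. For day 49 against day 1 only calls are given with the block. For arrays, their number limits the precision. Alternatives were median centring, renewed quantile normalization, a filter on low signals, other eBayes settings, array weights, 17 arrays, a replicate block, fits of 2 groups, means over a gene's probe sets and leaving out each array. The members, lists and the 17-array fit were chosen with earlier results of these data known.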

Additional observations from a re-analysis of the deposited data

Results flagged for a closer look

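Among the controls, replicate 3 stood far from the other 3 by Dixon's criterion in 3 of the 19 member probe sets: the leading Stat3 probe set at 9.23 and the other Jun probe sets at 8.09 and 5.16. Chance gives about 1 such group in 20.

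Klf7 lay above the control mean in every day 3 array and below it in every day 14 array, a difference of 0.61 between the 2 means; limma's test of that pair gave an adjusted p of 0.449. Without the 2 arrays that stand apart, day 14 minus day 3 was -0.36 for Klf7 (limma adjusted p = 0.644). Myc lay below the control mean in every day 3 array but above it in every array of days 1, 7 and 14. The differences from day 3 were 0.19, 0.22 and 0.46, and limma's adjusted p for the pairs was 1.00, 1.00 and 0.449. The last rests on day 14 replicate 2: it was 0.13 in the 17 other arrays (limma adjusted p = 0.775).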

How the results depend on the processing

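Leaving out each array in turn, and the other settings tried, left 0 of 19 member probe sets called at days 1, 3, 7 and 14 and for the lesion mean, with these exceptions. Array weights called 1 member probe set at day 1, 7 at day 49, 8 by the F test and 12 over the pairs of lesion times, where it called 0.564%, 21%, 20.7% and 36.7% of all probe sets. A fit of the 2 groups alone called 1 member probe set at day 3, where it called 3 of all 31042. Without 1 array in turn, 0 to 1 were called at day 49 and over the pairs of lesion times, the call coming without day 49 replicate 1, where 5.98% of all probe sets were called over the pairs.

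The count over all probe sets at day 1, 11 in the reported fit, was 175 with array weights, 68 in 17 arrays, 19 in a fit of the 2 groups, 3 with the replicate block and 0 to 13 without 1 array in turn. At day 3, where 0 were called, array weights gave 2 and the fit of 2 groups 3. At day 14 these gave 9 and 1, and leaving out 1 array 0 to 1. At day 49 array weights gave 6514 and leaving out 1 array 0 to 2435. The F test, with 4, gave 1 after renewed quantile normalization, 2 with trend and robust settings, 6413 with array weights, 42 in 17 arrays, 0 with the replicate block, 9 with means over a gene's probe sets and 0 to 11 without 1 array. Same-numbered arrays did not deviate together in 13 of 15 pairs of groups (lowest correlation -0.32). With the replicate block as a pairing term 0 member probe sets were called, and over the pairs of lesion times it called 6 of all probe sets in place of 13; it changed no call of a member.

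The Atf3 difference at day 49, -0.02, turned to 0.32 with array weights, 0.14 in 17 arrays and 0.040 with the replicate block, and lay between -0.21 and 0.14 without 1 array. The Sox11 difference at day 14 turned to -0.036 after renewed quantile normalization and lay between -0.086 and 0.23 without 1 array. At day 49 it turned to -0.094 after quantile normalization and -0.049 with array weights, and lay between -0.13 and 0.10 without 1 array. Jun at day 14 turned to -0.53 as the mean of its probe sets. For these the cause was not tested. Of 42 differences of the other 7 members, 8 changed sign in 17 arrays and 10 with array weights. With 3 arrays a group, differences within the standard errors given were not detectable, and differences well beyond them could also go uncalled. Atf3 at day 1 differed by 1.73 with an SE of 0.38, and its limma adjusted p was 0.415.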
